A study of Homo sapiens with 6 samples.

Results

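The genes described are 33 genes of homologous recombination and of the Fanconi anaemia pathway, chosen as a named list by their function in DNA repair. The list was chosen with earlier results of these data known. A gene counted as measured where an array feature carried its symbol and no other, and 28 of the 33 were measured among 16704 genes in all. RAD51D had only a feature shared with a read-through transcript, and BRCA2, FANCA, FANCD2 and RBBP8 were not analysed here. The samples were 6 stably transfected clones of LNCaP, a prostate cancer cell line that responds to androgen, with 1 array of cytoplasmic RNA each. Of these, 3 control clones carried a scrambled short hairpin RNA, and 3 knockdown clones carried a hairpin directed at MBD2, which recognises methylated CpG sites and brings repressor complexes to them. Every clone carried a siLentGene-2 hairpin vector and was selected for neomycin resistance, so the controls share vector and selection with the knockdown clones. Each replicate is a separate clone and no time after selection is given, so differences between individual clones enter the spread of both groups.

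Homologous recombination copies an intact sister sequence to mend a broken chromosome. Nucleases trim the broken end, BRCA1 and its partners bring in BRCA2, and further proteins, motor proteins among them, carry out the search and the exchange of strands. The Fanconi proteins recognise crosslinked DNA strands, and their core complex places ubiquitin on the FANCI and FANCD2 pair, which hands the lesion to nucleases and to recombination. Many of these genes are transcribed mainly in S and G2 phase, and E2F factors are known to act on some of their promoters.

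Values are log2 intensities summarised by the authors, so a difference of 1 is a change of 2-fold, and differences are given as knockdown minus control. MBD2 stood at 8.73, 9.24 and 9.20 in the control clones and at 7.68, 7.84 and 7.81 in the knockdown clones, a difference of -1.28 (SE 0.14, adjusted p = 0.111 in limma). All 3 knockdown clones lay below all controls for the targeted gene, at similar levels. Array medians lay between 6.31 and 6.33. The knockdown clone 1 array had the narrowest spread over genes, with an SD of 2.00 against 2.05 to 2.07 on the other 5. The 6 measured luminal prostate markers had control means of 8.54 to 11.0, among them the keratins KRT8 at 10.7 and KRT18 at 10.2. Of these 6, 4 had lower means, with a median difference of -0.043, and KLK3, the androgen-driven gene of prostate-specific antigen, varied most within groups, at 8.67, 10.12 and 8.48 in the controls and 8.66, 10.30 and 10.44 in the knockdown clones. The lower quartile over genes was at least 4.68 on each array, and control means below it on all arrays were found for 4 of 4 measured endothelial, 3 of 6 fibroblast and 3 of 5 haematopoietic markers. Of the basal epithelial markers 2 of 4 lay there, and the mean of the 4 was 0.31 above the controls in knockdown clone 1, 0.21 in clone 2 and 0.29 in clone 3, against -0.017 to 0.015 in the control clones. All 4 had higher means, 2 of them (KRT15 at 0.34 and LAMB3 at 0.40) with an unadjusted p under 0.05, against 3.93% of all genes, and in 3 the groups did not overlap, against 6.57%, but none passed an adjusted p under 0.05 in limma. Across haematopoietic markers the mean was -0.11 to -0.019 in the knockdown clones and -0.067 to 0.034 in the controls. The part of these markers in the repair results was not tested. None of the 28 repair genes lay under that quartile, and FANCB, at a control mean of 4.98, came nearest to it.

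As background to the values by clone, promoter windows of 300 bases, from 250 bases before the RefSeq start to 50 bases after it (GRCh38.p14), were found for 25 of the 28 genes. Both strands were searched for 3 E2F-like words, TTGGCGC as well as TTCCCGC and also TTCGCGC, and for the CCAAT box, and overlapping matches were counted separately (a reverse match of the first word followed by T also holds a CCAAT box). Among genes with a window, those shown are the 4 with the smallest p in the comparison of knockdown with control, and the 2 with the largest, to set the letters beside the values. The list is RAD51C (chr17:58692323-58692622, plus strand), BRCA1 (chr17:43125315-43125614, minus strand), BARD1 (chr2:214809634-214809933, minus strand), CHEK1 (chr11:125626106-125626405, plus strand), FANCF (chr11:22625774-22626073, minus strand) and ATR (chr3:142578684-142578983, minus strand). They read 5′ to 3′ on the strand of the gene, and capitals mark E2F-like words and CCAAT boxes in either orientation. Where a gene has several windows, the one with most such words is shown.
RAD51C: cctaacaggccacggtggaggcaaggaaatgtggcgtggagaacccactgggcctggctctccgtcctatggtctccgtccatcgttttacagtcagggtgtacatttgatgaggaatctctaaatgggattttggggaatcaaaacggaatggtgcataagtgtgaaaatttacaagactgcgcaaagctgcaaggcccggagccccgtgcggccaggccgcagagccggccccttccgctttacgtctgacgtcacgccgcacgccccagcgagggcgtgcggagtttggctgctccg
BRCA1: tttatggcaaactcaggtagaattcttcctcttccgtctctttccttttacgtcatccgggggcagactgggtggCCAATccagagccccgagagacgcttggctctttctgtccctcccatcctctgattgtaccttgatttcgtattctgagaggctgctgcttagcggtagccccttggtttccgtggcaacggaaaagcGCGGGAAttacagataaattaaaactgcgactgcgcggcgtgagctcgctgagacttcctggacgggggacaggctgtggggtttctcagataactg
BARD1: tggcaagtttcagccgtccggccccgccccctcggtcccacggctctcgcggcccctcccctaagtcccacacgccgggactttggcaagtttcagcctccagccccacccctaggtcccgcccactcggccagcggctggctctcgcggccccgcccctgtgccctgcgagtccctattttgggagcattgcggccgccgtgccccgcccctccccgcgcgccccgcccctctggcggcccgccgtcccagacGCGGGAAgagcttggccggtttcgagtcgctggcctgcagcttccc
CHEK1: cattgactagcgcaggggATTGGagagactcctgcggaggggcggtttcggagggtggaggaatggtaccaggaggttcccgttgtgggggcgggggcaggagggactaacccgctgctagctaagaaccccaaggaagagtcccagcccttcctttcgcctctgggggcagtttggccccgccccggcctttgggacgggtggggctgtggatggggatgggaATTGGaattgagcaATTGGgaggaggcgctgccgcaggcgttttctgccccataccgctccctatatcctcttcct
FANCF: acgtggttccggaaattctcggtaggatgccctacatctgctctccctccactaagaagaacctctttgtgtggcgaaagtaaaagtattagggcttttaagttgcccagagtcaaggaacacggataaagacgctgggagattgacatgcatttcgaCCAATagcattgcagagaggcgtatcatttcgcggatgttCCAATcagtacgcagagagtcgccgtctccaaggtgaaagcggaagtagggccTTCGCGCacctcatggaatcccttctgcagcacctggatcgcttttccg
ATR: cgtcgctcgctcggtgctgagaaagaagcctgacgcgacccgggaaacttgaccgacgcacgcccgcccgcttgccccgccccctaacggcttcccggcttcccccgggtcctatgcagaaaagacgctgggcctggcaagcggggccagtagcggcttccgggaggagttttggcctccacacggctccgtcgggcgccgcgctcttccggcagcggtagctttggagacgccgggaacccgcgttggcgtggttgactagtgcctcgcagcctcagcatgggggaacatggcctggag
BRCA1 holds 1 CCAAT box and 1 E2F-like word, the latter beginning at position -47, where 0 is the start. In BARD1 and FANCF an E2F-like word begins at positions 4 and 1. CHEK1 shows CCAAT boxes and no E2F-like word, and the windows of RAD51C and ATR show neither. No match says only that these letters are not in the window.

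The only comparison of the design, knockdown against control, asks which genes change when MBD2 is reduced. Lower means in the knockdown clones were found for 26 of the 28 repair genes, against 51.3% of all genes, with a median difference of -0.21 where the median of all genes was -0.0043. The largest differences were those of BRCA1 (-0.41), CHEK1 (-0.40), BARD1 (-0.36), RAD51AP1 (-0.35), RAD51C (-0.35) and FANCI (-0.34). Such values correspond to about 75.5% of the control level for BRCA1 and 78.8% for FANCI. RAD50 and ATR had slightly higher means.

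None of these differences passed the threshold of an adjusted p under 0.05 in limma with Benjamini-Hochberg adjustment over all genes, where 0% of all genes passed. The smallest adjusted p of the 28 genes was 0.315, for RAD51C. At an unadjusted p under 0.05 there were 7 of 28 genes lower and 0 higher, against 9.39% of all genes (5.45% lower and 3.93% higher). In 7 genes all 3 knockdown values lay below all 3 control values, against 8.87% of all genes, and in 1 gene, RAD50, they lay above, against 6.57%. The count of 7 depended on single clones. It was 15 without knockdown clone 1 (9.12% of all genes lower), 2 without knockdown clone 3 (3.6%), 4 without knockdown clone 2 (4.07%), 3 without control clone 1 (4.74%) and 3 without control clone 2 (3.91%).

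**Figure D1:**
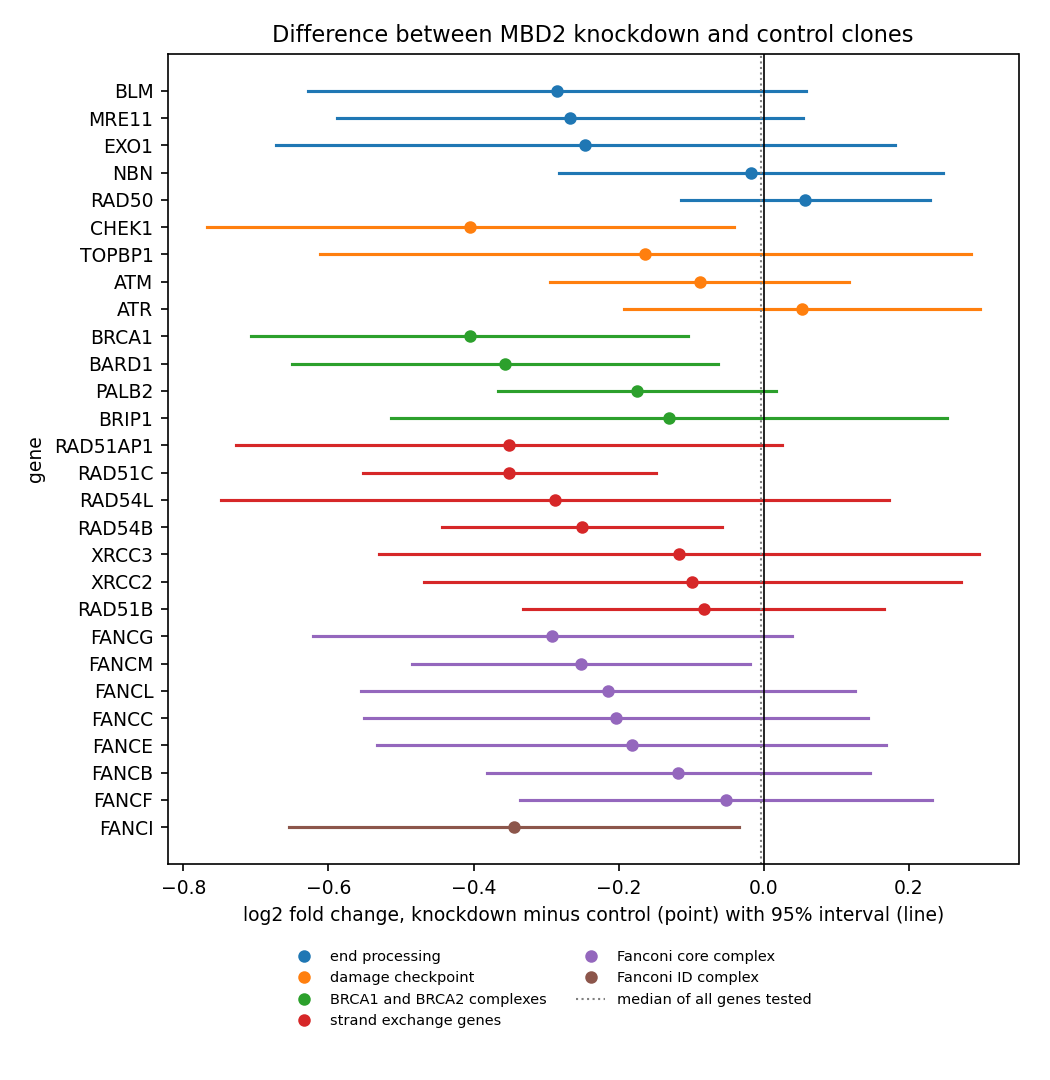
Log2 fold change (knockdown minus control, horizontal axis) of the 28 measured repair genes, with 95% intervals from limma as lines, coloured by role, from 3 control and 3 knockdown clones. Points of 26 genes lie left of 0, and the unadjusted intervals of 7 (CHEK1, BRCA1, BARD1, RAD51C, RAD54B, FANCM and FANCI) leave out 0.

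**Figure D2:**
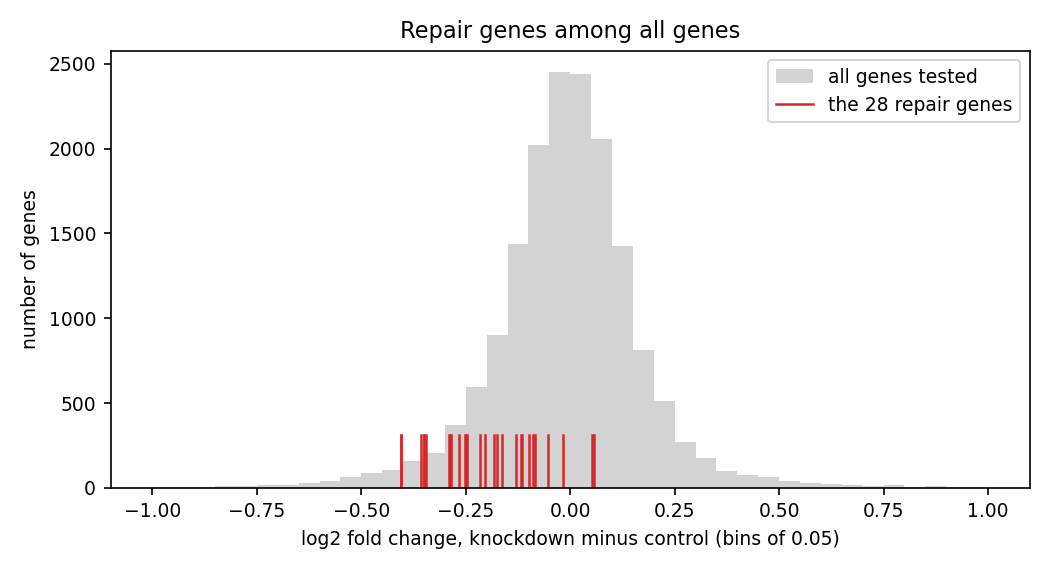
Number of genes (vertical axis) by log2 fold change in bins of 0.05, for the 16641 of 16704 genes within 1 log2 unit of 0, with the 28 repair genes as red ticks. The ticks run from -0.41 to 0.057, inside the range of the plotted genes.

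Among the genes that process broken ends, 4 of 5 had lower means and none had an unadjusted p under 0.05, where 51.3% and 9.39% of all genes did. MRE11, the nuclease of the complex that first binds a break, stood at 6.82, 6.68 and 6.33 in control clones 1, 2 and 3 and at 6.21, 6.45 and 6.37 in knockdown clones 1, 2 and 3. Its difference was -0.27 (SE 0.14, adjusted p = 0.615 in limma), and the low control clone 3 overlapped the knockdown clones. BLM, a helicase that helps to resect ends and to dissolve joined strands, had 6.93, 6.83 and 6.57 in the controls and 6.70, 6.55 and 6.22 in the knockdown clones. That is a difference of -0.29 (SE 0.15, adjusted p = 0.615), with knockdown clone 1 inside the range of the controls. EXO1, an exonuclease of long resection, had a mean difference of -0.25, made of 0.18 in knockdown clone 1 and -0.46 in each of clones 2 and 3, relative to the control mean. The partners of MRE11 had means nearer to the controls: RAD50, the long arm of the complex, had a difference of 0.057 (95% interval -0.11 to 0.23) and NBN, its signalling subunit, one of -0.018 (95% interval -0.28 to 0.25). RAD50 was nevertheless above all controls in all 3 knockdown clones, since its values were tight, from 9.91 to 9.99 in the controls and from 9.99 to 10.06 in the knockdown clones.

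Of the checkpoint genes, 3 of 4 had lower means and CHEK1 alone had an unadjusted p under 0.05. Over all genes the shares were 51.3% and 9.39%. CHEK1, the kinase that stops the cycle when replication stalls, stood at 8.25, 8.18 and 8.23 in the controls and at 8.19, 7.66 and 7.59 in the knockdown clones. Knockdown clone 1 lay within the range of the controls, and clones 2 and 3 lay well below it. The difference was -0.40 (SE 0.16, adjusted p = 0.481 in limma). Without knockdown clone 1 it was -0.59 and CHEK1 passed the threshold (adjusted p = 0.0498), where 70 of 16704 genes passed. CHEK1 also passed with array weights (adjusted p = 0.0387), where 325 genes passed. The weights were 0.252 for knockdown clone 1 and 3.43 for clone 2, so both settings lower the part of clone 1. Over all 15 alternatives the adjusted p of CHEK1 ranged from 0.0387 to 0.802.

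ATM, the kinase activated by broken ends, was at 6.93, 6.94 and 6.96 in the controls and at 6.71, 6.94 and 6.92 in the knockdown clones. In this gene knockdown clone 1 stood apart on the low side, and the difference of -0.089 (SE 0.088, adjusted p = 0.816) came mostly from it. TOPBP1, which activates ATR at stalled forks, spread most among the knockdown clones of all 28 genes, with RAD54L, at 8.59, 8.03 and 7.83 in clones 1, 2 and 3 against 8.35, 8.45 and 8.15 in the controls. ATR, the kinase of the replication checkpoint, had a difference of 0.052 (95% interval -0.19 to 0.30). Its value in knockdown clone 1 was above all controls and its value in clone 2 below them.

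The measured partners of the BRCA1 and BRCA2 complexes all had lower means, 4 of 4 (51.3% of all genes), and in 3 of them the groups did not overlap (8.87% of all genes). BRCA1, a ubiquitin ligase that promotes recombination over end joining, stood at 7.52, 7.59 and 7.38 in the controls and at 7.29, 7.15 and 6.83 in the knockdown clones. Every knockdown clone was below every control, clone 3 by the most. The difference was -0.41 (SE 0.13, 95% interval -0.71 to -0.10, adjusted p = 0.399). BARD1, the ring-finger partner that BRCA1 needs for its stability, had 9.04, 8.78 and 9.06 in the controls and 8.76, 8.66 and 8.39 in the knockdown clones. Its order over the knockdown clones was the same as that of BRCA1, with a difference of -0.36 (SE 0.13, adjusted p = 0.444), and knockdown clone 1 lay just under control clone 2. PALB2, the bridge between BRCA1 and BRCA2, differed by -0.18 (SE 0.082, adjusted p = 0.571) and its knockdown values, from 6.92 to 7.04, all lay below the lowest control at 7.09. BRIP1, a helicase bound to BRCA1, had a difference of -0.13 (SE 0.16), with knockdown clone 1 at 6.48 below and clone 2 at 7.03 above all controls.

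All 7 measured genes of strand exchange had lower means, against 51.3% of all genes. Of these, 2 had an unadjusted p under 0.05 as lower, against 5.45% of all genes. RAD51C, which forms one complex with XRCC3 and is part of another with XRCC2, stood at 9.32, 9.19 and 9.21 in the controls and at 8.77, 8.95 and 8.93 in the knockdown clones. All knockdown clones were well below all controls, clone 1 the lowest. The difference was -0.35 (SE 0.087, 95% interval -0.55 to -0.15, adjusted p = 0.315), which ranks 221 by p among 16704 genes, and over 15 alternatives it stayed between -0.38 and -0.29 with an adjusted p from 0.0675 to 0.72. RAD54B, a motor protein related to RAD54L, had 6.84, 6.80 and 6.88 in the controls and 6.70, 6.55 and 6.51 in the knockdown clones, again with no overlap. Its difference was -0.25 (SE 0.083, adjusted p = 0.408).

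RAD51AP1, which helps to pair strands, had 7.56, 7.49 and 7.18 in the controls and 7.26, 7.19 and 6.74 in the knockdown clones. Control clone 3 lay below knockdown clones 1 and 2 in this gene, so the groups overlapped, and the difference of -0.35 had an SE of 0.16 (adjusted p = 0.564). RAD54L, a motor protein that acts in strand exchange, had a difference of -0.29 (SE 0.20), with knockdown clones 1, 2 and 3 at 6.84, 6.31 and 6.08 against 6.49 to 6.88 in the controls. XRCC2 and XRCC3, which act in those complexes, had mean differences of -0.099 and -0.12, but in both knockdown clone 1 was above all controls (0.24 and 0.26 over the control mean) and clones 2 and 3 were below them. RAD51B, found in the complex with XRCC2, differed by -0.083 (95% interval -0.33 to 0.17), and its 3 knockdown values, from 6.59 to 6.66, lay inside the control range of 6.50 to 6.87.

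In the Fanconi core complex all 7 measured genes had lower means, against 51.3% of all genes. Only 1 had an unadjusted p under 0.05 as lower, against 5.45% of all genes. FANCM, the translocase that anchors the complex to DNA, stood at 6.66, 6.81 and 6.68 in the controls and at 6.35, 6.63 and 6.41 in the knockdown clones. The groups did not overlap, clone 2 came close to the controls, and the difference was -0.25 (SE 0.0997, adjusted p = 0.494). FANCG, an adaptor of the complex, had 6.55, 6.48 and 6.60 in the controls and 6.58, 6.06 and 6.13 in the knockdown clones. Knockdown clone 1 was at the level of the controls and clones 2 and 3 were far below it, with a difference of -0.29 (SE 0.14, adjusted p = 0.581). FANCL, the ubiquitin ligase of the complex, was lowest in knockdown clone 1. Its knockdown values were 6.28, 6.77 and 6.83 against 6.83 to 6.85 in the controls, so that clone 1 carried nearly all of the difference of -0.22 (SE 0.15). FANCC, FANCE, FANCB and FANCF, further core subunits, had differences of -0.20, -0.18, -0.12 and -0.052, with adjusted p from 0.735 to 0.931.

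FANCI, the measured one of the pair that the core complex modifies, stood at 8.27, 8.27 and 8.12 in the controls and at 8.12, 7.88 and 7.61 in the knockdown clones. Knockdown clone 1 lay just above control clone 3, and the other knockdown clones were below all controls. The difference was -0.34 (SE 0.13, adjusted p = 0.483).

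**Figure D3:**
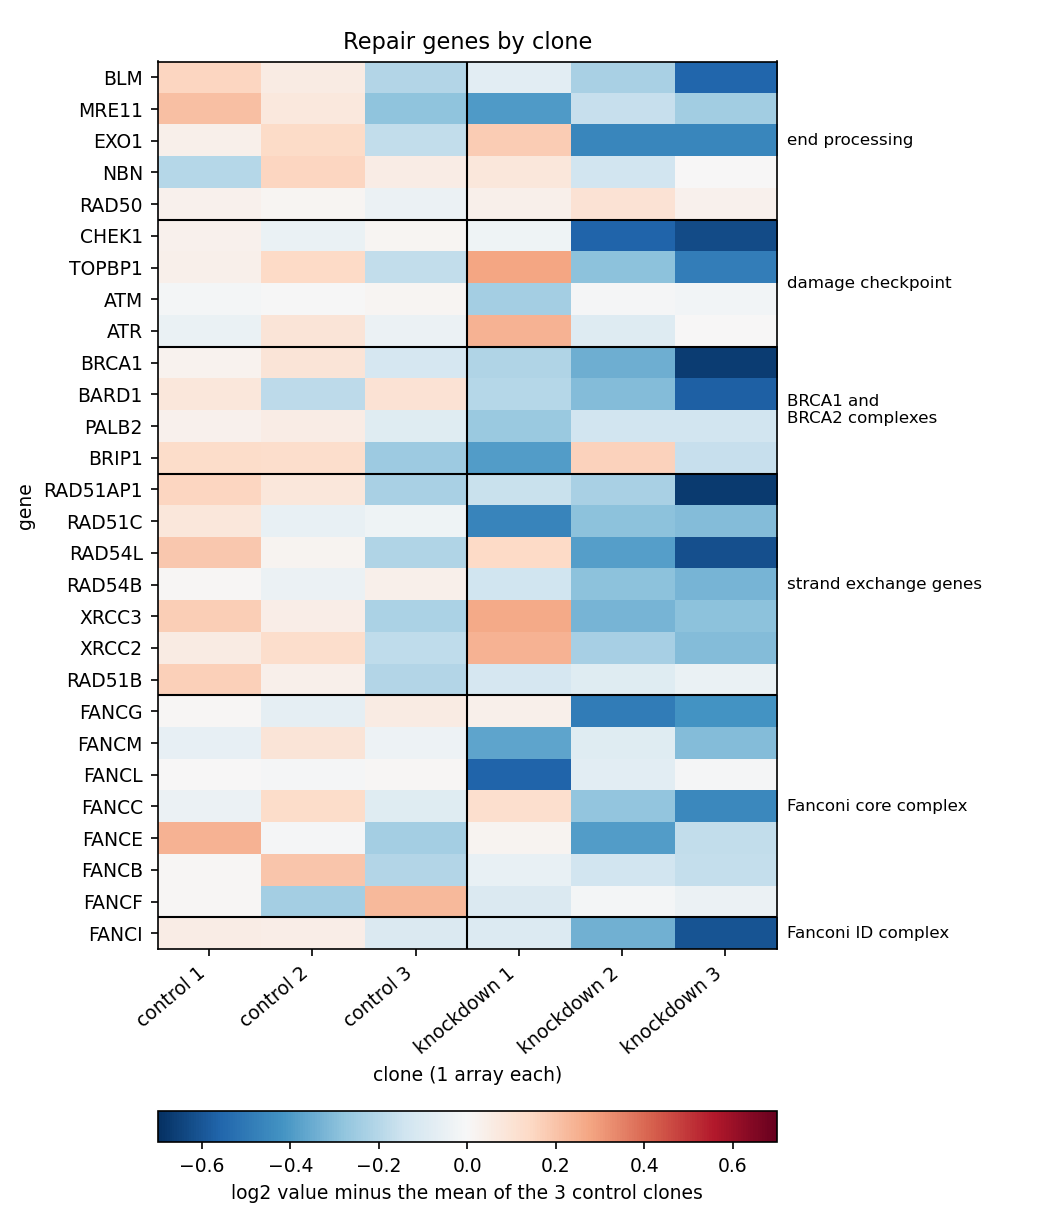
Each row is a repair gene and each column a clone, and the colour gives the log2 value minus the mean of the 3 control clones (blue lower, red higher). Knockdown clones 2 and 3 are blue in most rows, while knockdown clone 1 is red in EXO1, TOPBP1, ATR, XRCC2 and XRCC3 and blue in RAD51C, FANCL, MRE11 and BRIP1.

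The knockdown clones did not carry the same repair genes at low levels. Knockdown clones 2 and 3 lay below all 3 controls in 19 of 28 genes each, against 31.2% and 34.3% of all genes, and clone 1 in 10, against 27.9%. Clone 1 lay above all controls in 6 of the 28 genes, against 37.3% of all genes, and clones 2 and 3 in 2 and 1, against 23.1% and 24.9%. Sorted after their values were seen, 7 genes had all 3 knockdown clones below the controls (BRCA1, BARD1, PALB2, RAD51C, RAD54B, FANCL and FANCM). FANCL was among them only narrowly, with knockdown clone 3 at 6.8318 and control clone 2 at 6.8327. Another 10 genes had clones 2 and 3 below all controls and clone 1 not (EXO1, BLM, TOPBP1, CHEK1, XRCC2, XRCC3, RAD54L, FANCC, FANCG and FANCI). The share of all genes with this second pattern was not counted, so the 10 cannot be set against a background. Knockdown clone 1 was the highest knockdown clone in 18 of 28 genes and the lowest in 9. The shares of all genes with clone 1 highest or lowest were not counted either. Over the 28 genes the difference of knockdown clone 2 from clone 3 had an SD of 0.162, while that of clone 1 from clone 2 had 0.334 and from clone 3 had 0.35. Differences of control clones from each other had SDs of 0.145 to 0.205. Over all genes the SDs were in the same order, 0.185 for knockdown clone 2 from clone 3, 0.316 for clone 1 from clone 2 and 0.35 from clone 3, with 0.224 to 0.263 among the controls, so the distance of clone 1 from the other knockdown clones was not limited to the repair genes.

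Promoter words were then counted in these groups of genes. An E2F-like word was present for 15 of 25 repair genes with a window. The share was 18.5% of the 13351 measured genes with a window and 11.0% of all 35116 windows. Genes were counted if any of their windows held the word, whereas the last share counted each window by itself. Of the genes with only clones 2 and 3 below the controls, 8 of 9 with a window had such a word, the exception being CHEK1, against 3 of 6 with all clones below and 4 of 10 of the others. Over the 15 genes with the word the median difference from the control mean was 0.019 in knockdown clone 1, -0.29 in clone 2 and -0.45 in clone 3. Over the 10 genes without it the medians were -0.18, -0.11 and -0.15. FANCF, with the word, had a mean difference of -0.052, and RAD51C, without it, had one of -0.35. CCAAT boxes were present for 12 of 25 genes, against 42.5% of measured genes and 34.6% of all windows. The CHR-like word TTTGAA, searched likewise, was present for 3 of 25, against 15.6% and 15.2%. Over the 12 genes with a CCAAT box the median difference was -0.18 in knockdown clone 1, -0.19 in clone 2 and -0.30 in clone 3. Over the 13 without a box the medians were 0.034, -0.28 and -0.30. Clone 1 thus also differed by the CCAAT box, in the other direction than by the E2F-like word. Clone medians of other measured genes with either word were not computed. The median number of CG dinucleotides, in the window with most of them for each gene, was 27 for the repair genes and 26 over measured genes. These groups of genes were sorted on their values and no test was made, and a word in a window is no evidence that a factor binds there.

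Cell cycle genes had low values in the same clones. Averaged over the 28 repair genes, knockdown clone 1 stood -0.079 from the controls, clone 2 stood -0.22 and clone 3 stood -0.31, with the control clones at 0.055, 0.038 and -0.093. The mean of 37 replication and S phase genes was 0.025, -0.38 and -0.51 in the knockdown clones and 0.046, 0.070 and -0.12 in the controls. For 27 mitosis genes it was -0.22, -0.47 and -0.59, and 0.084, -0.015 and -0.069. In all 3 lists knockdown clone 1 was the highest and clone 3 the lowest of the knockdown clones. Lower means were found for 51.3% of all genes, and 5.45% were lower at an unadjusted p under 0.05. Of the S phase genes 36 of 37 had lower means and 9 an unadjusted p under 0.05, for example MCM6, a subunit of the replicative helicase (-0.35), and RRM2, of ribonucleotide reductase (-0.56). Of the mitosis genes all 27 had lower means and 22 an unadjusted p under 0.05, with KIF11, a spindle kinesin, at -0.53 and CDCA8, of the chromosomal passenger complex, at -0.55. None passed an adjusted p under 0.05 in limma. The part of the cell cycle in the repair values was not tested. In RNA of whole cultures, fewer cells in the phases that express a gene and less RNA per cell cannot be told apart.

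**Figure D4:**
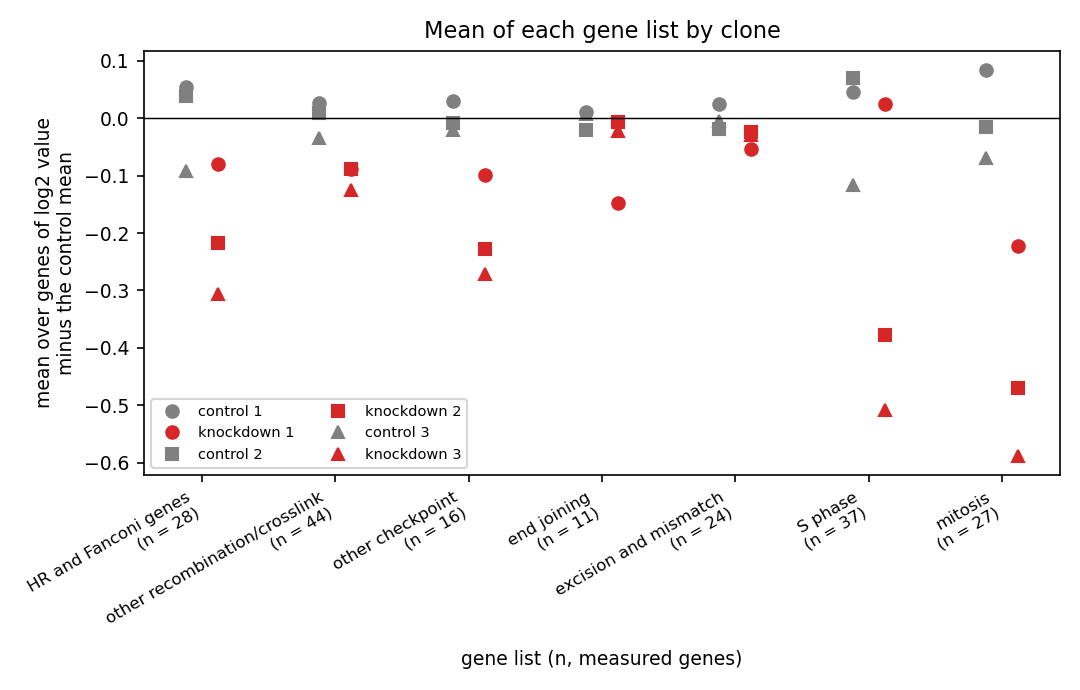
Mean over the genes of each list of the log2 value minus the control mean (vertical axis), for control clones (grey) and knockdown clones (red), with the clone number as marker shape. Knockdown clones 2 and 3 are at -0.22 and -0.31 in the homologous recombination and Fanconi genes, and at -0.38 and -0.51 in S phase genes, while the end joining genes are near 0 in both.

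Other genes of recombination and crosslink repair had a median difference of -0.081, and this was not tested against the 28 genes. Of 44 measured, 29 had lower means, against 51.3% of all genes. An unadjusted p under 0.05 was found for 5 as lower and 0 as higher, against 5.45% and 3.93% of all genes. MND1, a partner in strand exchange best known from meiosis, had -0.62 (SE 0.12, adjusted p = 0.229), and RAD21, a cohesin subunit, had -0.26 (adjusted p = 0.399). The list averaged -0.088 in both knockdown clones 1 and 2 and -0.12 in clone 3. All 16 measured genes of the other checkpoint and damage signalling list had lower means (51.3% of all genes), with a median of -0.18. Of these, 4 had an unadjusted p under 0.05 as lower (5.45% of all genes). CDC25A, a phosphatase that drives entry into S phase and a target of CHEK1, had -0.47 (SE 0.11, adjusted p = 0.272), and H2AX, the histone variant marked at breaks, had -0.35 (adjusted p = 0.361).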

How the data were processed

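Cytoplasmic RNA of 6 LNCaP clones was measured on Affymetrix human Gene 1.0 ST arrays, per the design text and the labels' protocols. The deposited table holds log2 values per feature, made by the authors with RMA. Besides RMA, the submitters' processing notes list oligo and limma. No version or filter is stated there. That the scale is log2 was taken from the range of the values. Of 19712 features, 17334 had 1 gene symbol, and taking the brightest such feature of each gene gave 16704 genes. Each measured repair gene had 1 feature.

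The 2 groups were compared with limma 3.58.1 (lmFit, then eBayes, R 4.3.3) without covariates, with Benjamini-Hochberg adjustment across the whole table. Intervals are 95% and unadjusted. The number of arrays limits the precision. The fit was tested on simulated data in 20 draws, with 200 of 16704 genes changed by 2-fold or 4-fold. It recovered 89.4% of genes changed 2-fold, and 4.71% of calls were false. The simulated noise was independent between genes, and changes as small as those of the repair genes were not simulated. These shares therefore do not give the power for the repair genes. In the deposited values MBD2, at a difference of -1.28, did not pass. Values on every array are given for the 2 genes with the smallest p in each role group and the 8 with the smallest p of all, and from each other repair and cell cycle list the 2 with the smallest p are named. Further genes were named after their values were seen. The repair genes, lists and tests were chosen with earlier results of these data known. Promoter windows are RefSeq's. Alternatives covered normalization, dim genes, variance model, array weights, replicate block, features, threshold and each clone left out. Tables were handled in Python 3.11.15 with pandas 2.3.3.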

Additional observations from a re-analysis of the deposited data

How the results depend on the processing

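The sign of the difference was the same under all alternatives for 23 of 28 repair genes. The median of the 28 genes lay between -0.29 and -0.15 when single clones were left out. The count at an unadjusted p under 0.05 on the lower side then lay between 2 and 15, against 7 with all clones. The share of all genes lower by that rule moved too, from 3.6% to 9.12%, against 5.45% with all clones. That count was 15 with array weights (11.6% of all genes) and 4 with knockdown clones 2 and 3 averaged (3.74%). The number of genes past the threshold, 0 of 16704, was 1 after repeated quantile normalization, 1 after cyclic loess, 325 with array weights, 2 at an adjusted p under 0.1 and 0 to 70 with a clone left out. Of the repair genes 0 to 1 passed with a clone left out and 1 with array weights, CHEK1 each time. NBN changed sign after quantile normalization (0.033), after cyclic loess (0.027) and with knockdown clones 2 and 3 averaged (0.0059), and it ranged from -0.12 to 0.058 with a clone left out. With array weights ATR was at -0.066, BRIP1 at 0.047 and FANCF at 0.011. With a clone left out FANCF ranged from -0.17 to 0.062, ATR from -0.042 to 0.12 and XRCC2 from -0.27 to 0.0049. The cause was not tested. FANCB was left out with the dimmest 30% of genes. Clones of the same number did not deviate together (correlations over genes of -0.025, -0.19 and 0.17 for numbers 1, 2 and 3), and not every clone correlated best with its own number. With the number as a replicate block, 10 repair genes had an unadjusted p under 0.05 as lower, against 5.48% of all genes. In that fit 0 genes passed, and the median of the repair genes was unchanged at -0.21.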

Other observations

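Genes of repair routes that do not use a sister copy were described in the same way. Of 11 measured genes of non-homologous end joining, 8 had lower means (51.3% of all genes), with a median of -0.083. None had an unadjusted p under 0.05, against 5.45% of all genes lower and 3.93% higher. POLM, a polymerase that fills in joined ends, had a difference of 0.19 (SE 0.087, adjusted p = 0.572 in limma) and XRCC4, the scaffold of the ligation complex, one of -0.18 (adjusted p = 0.586). By clone, the list averaged -0.15 in knockdown 1, -0.0067 in knockdown 2 and -0.023 in knockdown 3.

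Of 24 genes of base excision, mismatch and nucleotide excision repair, 16 had lower means (51.3% of all genes), with a median of -0.036. An unadjusted p under 0.05 was found for 1 gene on each side, against 5.45% of all genes lower and 3.93% higher. POLB, the gap-filling polymerase of base excision repair, had -0.32 (SE 0.086, adjusted p = 0.338), and NEIL1, a glycosylase that removes oxidised bases, had 0.43 (SE 0.16, adjusted p = 0.468).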
